A study of Mus musculus with 6 samples.

Results

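Imprinted genes are expressed from only the paternal or only the maternal chromosome, and 51 of them, named by the imprinted cluster they belong to, were followed in leukemic B cell precursors with and without Etv5. A gene was taken when a probe set carried its symbol alone in the platform's annotation, and this held for 44 of the 51, out of 19938 genes measured. The other 7, H19, Slc22a3, Gnas, Kcnq1ot1, Snrpn, Ube3a and Zrsr1, had no such probe set and were not analysed here. Each of the 44 had a single probe set, so the choice of the brightest one never arose.

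The cells were pre-B cells of 129SvEv mice transformed by BCR-ABL1, the kinase fusion that the Philadelphia translocation creates in acute lymphoblastic leukemia. There were 3 samples labelled ETV5 KO and 3 labelled ETV5 WT, and BCR-ABL1 was common to all of them. Etv5 is an ETS-family transcription factor. Total RNA with a biotin label was run on 1-colour Affymetrix arrays, and the deposited values are log2 signals. The sources used here do not give the exons that the knockout allele lacks, the age of the mice, or whether each sample is a mouse or culture of its own. The p-values therefore cover the spread among these 6 samples only, and that spread may be technical.

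In an imprinted cluster, DNA methylation laid down in one parent's germ line marks a control region, and the mark steers a whole neighbourhood of genes in cis. A long noncoding RNA is often made from one chromosome and keeps the protein-coding genes beside it silent there. Several imprinted genes act on growth: Igf2 is a growth factor, Igf2r carries it to lysosomes for destruction, and Grb10 dampens insulin and IGF1 receptor signalling. The arrays sum both chromosomes, so a change in level says nothing about which parental copy it came from.

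Array medians lay between 7.79 and 7.84. Arrays correlated at 0.994 to 0.997 within a genotype and at 0.991 to 0.994 across genotypes, over probe sets that are not independent replicates. All 11 measured B cell precursor markers lay above the 95th percentile of olfactory and vomeronasal receptor probe sets, which was 7.22 and is used below as a mark of dim signal. By limma, 2 of those 11 passed (18.2%, against 4.43% of all genes). The B lineage factor gene Pax5 rose by 0.43 and Dntt, which adds nucleotides at immunoglobulin joints, fell by 0.37 (log2, limma adjusted p = 0.0127 and 0.0132). Knockout and wild-type values did not overlap in 7 of the 11 (63.6%, against 20.5% of all genes). The mean signal of the 11 ran from 12.38 to 12.48 on the knockout arrays and from 12.37 to 12.43 on the wild-type arrays. Of 8 myeloid markers 3 averaged above the dim mark and 1 passed (12.5%, against 4.43% of all genes). It was the integrin gene Itgam, which rose by 0.60 to 7.83 in the knockout, against 7.24 in the wild type (adjusted p = 0.0235). Lyz2, the brightest of the 8, read 8.32, 8.74 and 8.64 in the knockout and 9.07, 8.80 and 8.79 in the wild type. It differed by -0.32 without overlap and did not pass (log2, limma adjusted p = 0.473). Values did not overlap in 3 of the 8 (37.5%, against 20.5% of all genes), and 6 of the 8 differences were below 0. The mean of the 8 ran from 6.92 to 7.14 on the knockout arrays and from 6.97 to 7.08 on the wild-type arrays, and the neutrophil and monocyte markers Mpo, Csf1r, Cd14, S100a8 and S100a9 were below the dim mark in both genotypes. The part of these marker changes in the imprinted gene results was not tested. None of 6 T cell and 2 erythroid markers passed. Of 8 stromal and fibroblast markers none passed the test, and their mean signal ran from 7.09 to 7.22 on the knockout arrays and from 7.11 to 7.27 on the wild-type arrays. Etv5 had a pair of probe sets. The one numbered 10438626 read 8.97, 8.91 and 8.92 in the knockout and 9.30, 9.52 and 9.27 in the wild type (limma adjusted p = 0.0467), and 10363901 read 11.67, 11.88 and 11.73 in the knockout and 11.48, 11.52 and 11.46 in the wild type (adjusted p = 0.13). Neither is known to lie in the deleted part, so the labels were not checked by them.

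Of the imprinted genes that differed, 4 sat in 2 adjoining pairs. Igf2r and its antisense neighbour Airn both rose in the knockout, and Grb10 fell while its neighbour Ddc rose. Ndn and Impact also rose. By limma with Benjamini-Hochberg adjustment over all 35556 probe sets at a threshold of 0.05, 6 of 44 imprinted genes changed (13.6%), against 4.43% of all genes. Of these, 5 were higher in the knockout, where 2.42% of all genes were, and 1 was lower, where 2.01% were. At an unadjusted p under 0.05 there were 7 of 44 (15.9%), close to the 13.4% of all genes. Knockout and wild-type values did not overlap in 8 of 44 (18.2%), no more than the 20.5% of all genes. The median change of the 44 genes was -0.0044 on the log2 scale, beside -0.0039 over all genes, with 20 above 0 and 24 below.

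**Figure D1:**
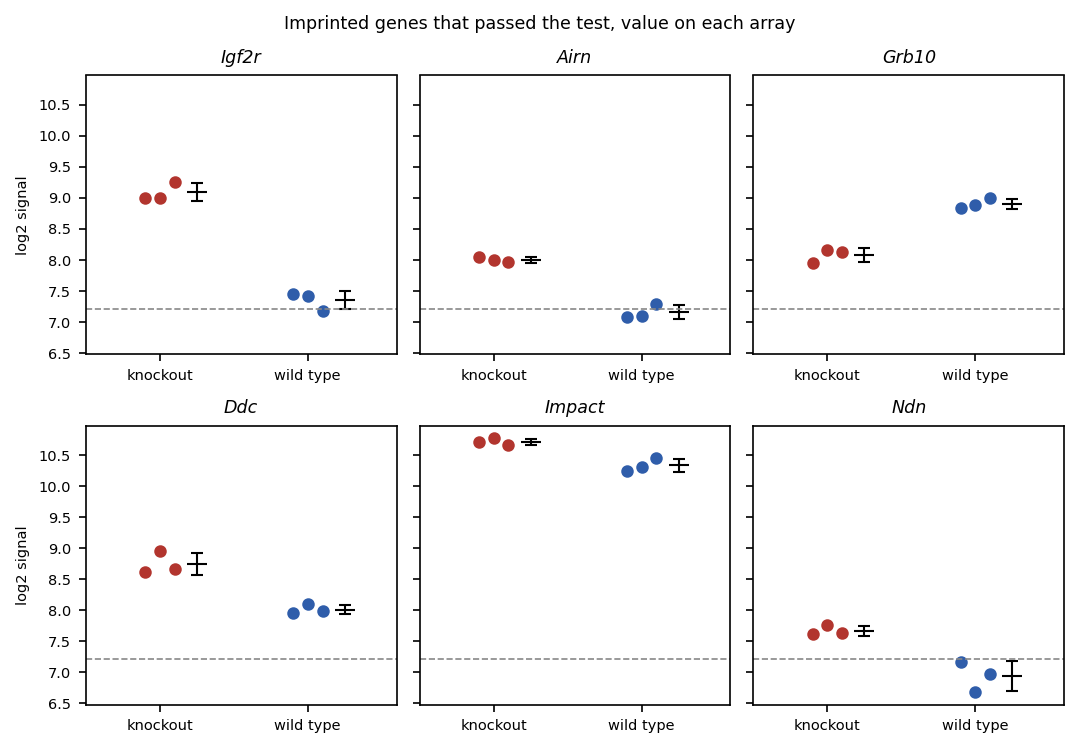
Log2 signal of the 6 imprinted genes that passed the test, one point per array with knockout left of wild type, and the mean and SD of 3 arrays beside each group (black). The dashed line marks 7.22, the 95th percentile of receptor probe sets: Igf2r in the wild type sits close to it, and Airn and Ndn in the wild type average below it.

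Start-site windows are printed for the adjoining pairs, because their members rose together at one locus and moved apart at the other. The windows are 300 bases each, from RefSeq on GRCm38.p6, and capitals mark GGAA on either strand (TTCC as read), the core bound by ETS factors. Igf2r lies on the minus strand with its window at chr17:12769657-12769956, and Airn on the plus strand at chr17:12741061-12741360.
Igf2r: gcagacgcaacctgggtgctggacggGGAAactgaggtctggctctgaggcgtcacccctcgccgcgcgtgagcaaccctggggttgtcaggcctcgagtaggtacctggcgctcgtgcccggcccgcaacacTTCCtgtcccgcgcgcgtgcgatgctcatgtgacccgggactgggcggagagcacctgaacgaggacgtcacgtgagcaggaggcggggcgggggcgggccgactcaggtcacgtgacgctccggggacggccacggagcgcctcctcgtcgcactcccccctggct
Airn: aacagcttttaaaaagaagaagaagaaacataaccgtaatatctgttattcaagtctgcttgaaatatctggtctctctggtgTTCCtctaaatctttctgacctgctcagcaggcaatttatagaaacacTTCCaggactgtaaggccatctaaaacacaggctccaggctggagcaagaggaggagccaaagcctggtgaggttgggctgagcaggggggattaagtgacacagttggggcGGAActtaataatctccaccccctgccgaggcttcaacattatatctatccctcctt
Grb10 and Ddc, both on the minus strand, have 2 annotated windows each. Those of Grb10 are chr11:12037371-12037670 and chr11:12027922-12028221, and those of Ddc are chr11:11898095-11898394 and chr11:11890359-11890658.
Grb10 window 1: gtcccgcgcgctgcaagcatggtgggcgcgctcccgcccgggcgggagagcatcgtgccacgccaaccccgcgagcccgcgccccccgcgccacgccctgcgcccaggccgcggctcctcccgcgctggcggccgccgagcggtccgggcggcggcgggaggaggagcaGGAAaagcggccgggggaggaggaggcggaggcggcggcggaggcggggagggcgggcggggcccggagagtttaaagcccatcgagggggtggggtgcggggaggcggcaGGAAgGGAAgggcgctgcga
Grb10 window 2: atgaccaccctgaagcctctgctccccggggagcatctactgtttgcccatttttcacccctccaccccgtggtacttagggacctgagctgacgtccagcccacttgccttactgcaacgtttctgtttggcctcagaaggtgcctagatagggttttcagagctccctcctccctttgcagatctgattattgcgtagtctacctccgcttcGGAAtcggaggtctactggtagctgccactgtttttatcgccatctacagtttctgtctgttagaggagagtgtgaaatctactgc
Ddc window 1: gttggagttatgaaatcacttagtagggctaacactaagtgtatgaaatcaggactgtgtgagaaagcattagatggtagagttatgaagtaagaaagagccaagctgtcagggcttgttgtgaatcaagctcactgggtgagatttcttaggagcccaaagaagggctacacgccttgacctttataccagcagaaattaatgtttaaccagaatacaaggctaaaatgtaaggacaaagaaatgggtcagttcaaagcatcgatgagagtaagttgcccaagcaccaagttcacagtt
Ddc window 2: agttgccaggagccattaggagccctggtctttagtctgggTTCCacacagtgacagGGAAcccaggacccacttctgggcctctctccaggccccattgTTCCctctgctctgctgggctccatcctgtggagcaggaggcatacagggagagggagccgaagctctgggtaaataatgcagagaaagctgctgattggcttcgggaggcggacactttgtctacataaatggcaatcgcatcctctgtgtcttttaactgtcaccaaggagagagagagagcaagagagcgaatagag

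The windows differed most in CG content. Igf2r held 34 CG dinucleotides and Grb10 window 1 held 45, more than 92.3% and 98.1% of all 32851 windows, whose median was 7. Airn held 3, Grb10 window 2 held 9, and the Ddc windows held 2 and 5. GGAA occurred 2 times in Igf2r, 3 times in Airn, 3 and 1 times in the Grb10 windows, and 0 and 3 times in the Ddc windows, matches on both strands counted. It is present in 96% of all windows. The longer GGAAGT, which contains GGAA, occurred once each in Igf2r and Airn and in none of the Grb10 and Ddc windows, against 23.8% of all windows. These are descriptions of letters and do not show binding.

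Igf2r encodes the cation-independent mannose 6-phosphate receptor, which sorts lysosomal enzymes and clears IGF2; in the mouse it is expressed from the maternal chromosome in most tissues. It read 9.004, 9.007 and 9.258 in the knockout and 7.461, 7.423 and 7.185 in the wild type. Every knockout array lay more than a log2 unit above every wild-type array, and the wild-type arrays sat near the dim mark of 7.22. Igf2r rose 3.33-fold, a log2 change of 1.73 ± 0.11 (SE, 95% interval 1.48 to 1.99, limma adjusted p = 0.000747), and of all 19938 genes 33 rose more. Its call held in each fit that left out 1 sample, with adjusted p between 0.00361 and 0.00713. RMA, the method behind these values, compresses differences of dim probe sets, so the size of the change is uncertain.

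Airn is the long noncoding RNA of the same locus, transcribed from the paternal chromosome across the Igf2r start and known in the mouse to silence Igf2r on that chromosome. It read 8.0519, 7.9996 and 7.9623 in the knockout and 7.0786, 7.1044 and 7.2855 in the wild type, without overlap. Its rise was 1.80-fold, or 0.85 ± 0.072 on the log2 scale (SE, limma adjusted p = 0.00244). The wild-type mean of 7.16 lay below the dim mark. Airn and Igf2r overlap in the gene table on opposite strands, and the strand of the label is not given in the sources used here, so signal shared between them cannot be told apart. Slc22a2, an organic cation transporter gene imprinted in mouse placenta, was dim at 6.69 in both genotypes (log2 change -0.0043, 95% interval -0.17 to 0.16).

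Grb10 encodes an adaptor that binds and restrains the insulin and IGF1 receptors; its expressed copy is maternal in most mouse tissues and paternal in neurons. Of the 44 imprinted genes it was the only one to pass as lower in the knockout. The arrays gave 7.95, 8.16 and 8.13 in the knockout and 8.83, 8.89 and 8.99 in the wild type, with no overlap. Grb10 fell by 0.83 on the log2 scale (SE 0.078, 95% interval -1.02 to -0.64, limma adjusted p = 0.00371), which is 1.77-fold lower in the knockout. Without any 1 sample its adjusted p stayed between 0.0107 and 0.0225.

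Ddc, next to Grb10, encodes dopa decarboxylase, the enzyme that makes dopamine and serotonin from their precursors, and a form of it is imprinted in mouse heart. Its signal was 8.61, 8.95 and 8.67 in the knockout and 7.95, 8.10 and 7.99 in the wild type. Knockout sample 2 was the highest and no value overlapped. Ddc rose by 0.73 ± 0.10 (SE, log2, limma adjusted p = 0.016), opposite in direction to its neighbour. The call was lost without knockout sample 3, wild-type sample 1 or wild-type sample 3 (adjusted p = 0.0585, 0.0822 and 0.066).

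Ndn, which encodes the growth-restraining MAGE-family protein necdin, is expressed from the paternal chromosome in the Prader-Willi syndrome region. It read 7.61, 7.76 and 7.64 in the knockout and 7.17, 6.68 and 6.97 in the wild type. The wild-type arrays spread most, with sample 2 lowest, and all of them lay below the dim mark. Ndn rose by 0.73 ± 0.13 (SE, log2, limma adjusted p = 0.0379). Without knockout sample 1, 2 or 3 or wild-type sample 3 the adjusted p was 0.0996, 0.149, 0.138 and 0.108, and in the fits with cyclic loess or array weights it was 0.06 and 0.0534.

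The genes beside Ndn did not pass. Magel2, a ubiquitin ligase regulator of the MAGE family, read 7.65, 7.66 and 7.63 in the knockout and 7.62, 7.51 and 7.56 in the wild type, apart but by 0.09 only (log2, limma adjusted p = 0.717). Mkrn3, a makorin RING finger gene, differed by 0.16 and Peg12, a FRAT family gene, by 0.12 (adjusted p = 0.565 and 0.808). The 4 measured paternally expressed genes of this cluster had differences above 0, as did 9603 of all 19938 genes, and 1 passed. The 95% intervals of Magel2, Mkrn3 and Peg12 included 0, Mkrn3 averaged below the dim mark, and the paternal gene Snrpn was not measured. Atp10a, a phospholipid-flipping ATPase whose imprinting in the mouse is disputed, was bright at 11.14, 11.32 and 11.14 in the knockout and 11.20, 11.21 and 11.31 in the wild type, and its groups overlapped (log2 change -0.04).

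Impact is a paternally expressed gene whose protein restrains GCN2, the kinase that senses amino acid shortage. It was bright in both genotypes, at 10.70, 10.77 and 10.66 in the knockout and 10.24, 10.31 and 10.45 in the wild type. The groups did not overlap, although the gap between the closest arrays was small. Impact rose 1.30-fold, or 0.38 ± 0.07 (SE, log2, limma adjusted p = 0.0478), the weakest call of the 6. It was lost without any of the 3 knockout samples (adjusted p 0.125, 0.16 and 0.139) and without wild-type sample 1 or 2 (0.176 and 0.185). Leaving out knockout sample 3 left 3 of 44 imprinted genes called, namely Igf2r, Airn and Grb10, and those 3 passed in each of the 14 alternative fits.

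**Figure D2:**
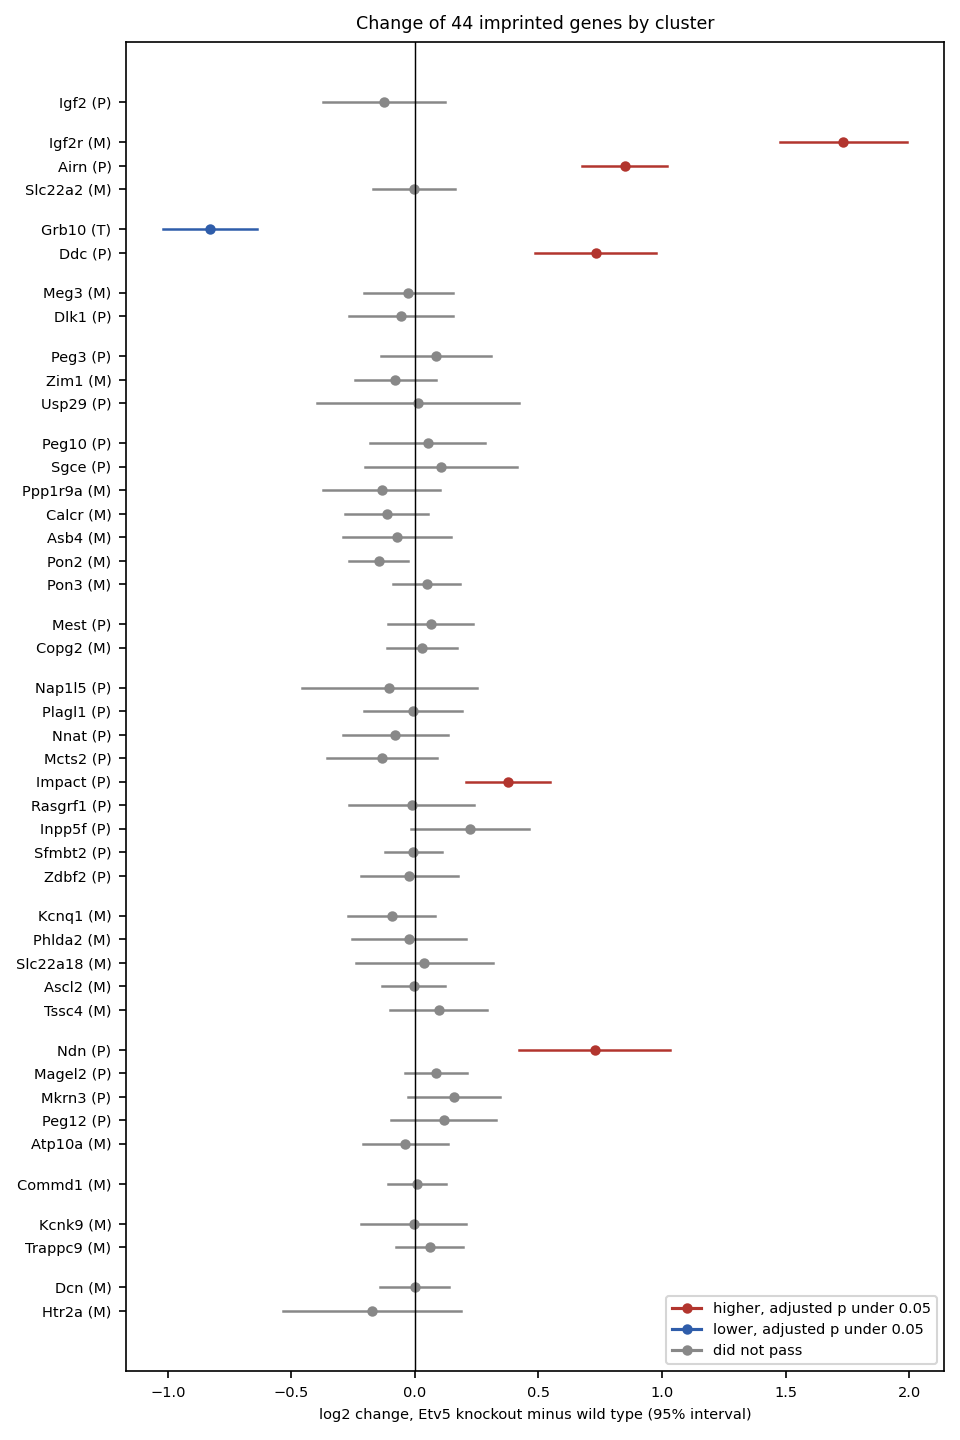
Log2 change, knockout minus wild type, of the 44 imprinted genes with 95% intervals, grouped by cluster from the Igf2 gene at the top to the lone maternal genes at the bottom. P, M and T mark genes listed as of paternal, maternal and tissue-dependent expression. To the right lie 5 genes (red), to the left Grb10 (blue), and the 38 others (grey) lie within -0.17 and 0.22.

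The other pairs of opposite parental expression showed no passing change. Igf2, the fetal growth factor cleared by Igf2r, read 7.36, 7.12 and 7.09 in the knockout and 7.23, 7.46 and 7.25 in the wild type, near the dim mark and overlapping. The difference was -0.13 (log2, 95% interval -0.37 to 0.12). Dlk1, a NOTCH-ligand-like membrane protein of progenitors, read 8.71, 8.65 and 8.45 in the knockout and 8.64, 8.76 and 8.58 in the wild type. Its partner Meg3, a maternal noncoding RNA, read 7.51, 7.34 and 7.42 in the knockout and 7.50, 7.51 and 7.34 in the wild type. Both overlapped between genotypes, with intervals of -0.27 to 0.16 for Dlk1 and -0.21 to 0.15 for Meg3.

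Peg3, a paternal zinc finger gene, and Zim1, its maternal neighbour, were dim on every array. Peg3 read 6.78, 6.92 and 6.58 in the knockout and 6.71, 6.66 and 6.64 in the wild type, and Zim1 read 6.25, 6.29 and 6.12 in the knockout and 6.28, 6.37 and 6.24 in the wild type. Usp29, a ubiquitin protease gene of the same cluster, was dim as well (log2 change 0.01, interval -0.40 to 0.42). Mest, a paternal hydrolase-like gene, was dim at 6.71, 6.93 and 6.90 in the knockout and 6.77, 6.81 and 6.77 in the wild type. Copg2, which overlaps Mest and encodes a coat protein of Golgi vesicles, gave 11.51, 11.66 and 11.61 in the knockout and 11.56, 11.54 and 11.59 in the wild type. Within these pairs no knockout group stood apart from its wild-type group.

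The Kcnq1 cluster held 5 measured genes and none passed. The potassium channel gene Kcnq1 read 7.70, 7.62 and 7.49 in the knockout and 7.72, 7.74 and 7.62 in the wild type (log2 change -0.09, interval -0.27 to 0.08). Phlda2, a maternal gene that limits placental growth, Slc22a18, a transporter gene, and Ascl2, a trophoblast transcription factor gene, differed by -0.02, 0.04 and -0.0045. Tssc4, bright among them, read 9.64, 9.92 and 9.71 in the knockout and 9.67, 9.64 and 9.67 in the wild type. Its groups overlapped. Commd1, which regulates copper handling and NF-kB, read 8.92, 8.93 and 8.86 in the knockout and 8.88, 8.89 and 8.92 in the wild type (log2 change 0.0065, interval -0.11 to 0.12), and its partner Zrsr1 was not measured.

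In the Peg10 and Sgce cluster, 7 genes were measured and none passed. Pon2, an antioxidant lactonase of the paraoxonase family, read 10.67, 10.77 and 10.72 in the knockout and 10.87, 10.87 and 10.86 in the wild type. The groups did not overlap, but the difference of -0.15 (log2, SE 0.049) had a limma adjusted p of 0.311. Its paralog Pon3 overlapped between genotypes, at 10.39, 10.53 and 10.45 in the knockout and 10.38, 10.41 and 10.42 in the wild type. The retrotransposon-derived gene Peg10, the sarcoglycan gene Sgce, the actin-binding protein gene Ppp1r9a, the calcitonin receptor gene Calcr and Asb4, a ubiquitin ligase subunit gene, differed by -0.13 to 0.10. Calcr, Asb4, Sgce and Ppp1r9a averaged below the dim mark.

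The remaining genes lie alone or in small groups. Mcts2, a paternal retrogene, read 9.24, 9.47 and 9.49 in the knockout and 9.65, 9.52 and 9.44 in the wild type, overlapping. Trappc9, a subunit of a vesicle-tethering complex, read 9.81, 9.94 and 9.82 in the knockout and 9.81, 9.77 and 9.81 in the wild type, and its neighbour Kcnk9, a potassium channel gene, was near the dim mark. Inpp5f, an inositol phosphatase gene with a paternal isoform in mouse brain, had the highest difference among genes that did not pass, 0.22 (log2, interval -0.01 to 0.46). Plagl1, Nnat, Nap1l5, Rasgrf1, Sfmbt2 and Zdbf2, all paternal, differed by -0.10 to -0.0065, and the maternal genes Dcn and Htr2a by -0.00015 and -0.17. Among these only Nnat, at 7.34, averaged above the dim mark. Across the 38 genes that did not pass, the 95% intervals reached at most -0.53 and 0.46.

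Of the 22 measured genes listed as paternal, Airn, Ddc, Ndn and Impact passed as higher and none as lower. Of the 21 listed as maternal Igf2r passed as higher and none as lower. The shares called were 18.2% of the paternal and 4.76% of the maternal genes, against 4.43% of all genes. The median change was 0.06 for the paternal and -0.0051 for the maternal genes, beside -0.0039 over all genes. Grb10, listed as dependent on tissue, was in neither class. For some genes, such as Ddc, the listed origin is known from other tissues or isoforms only, and parental origin was not measured in these cells. A difference between the classes was not tested. In these samples 18 of the 44 genes averaged at or below the dim mark over the 6 arrays, and 26 averaged above it. The 6 genes that passed were among the 26, but that average includes the knockout arrays. In the wild type alone Airn and Ndn averaged below the mark, so the place of the calls is no result about dim genes. Signal of different probe sets depends on their sequence, so the mark describes dimness and does not show absence. In bulk RNA, fewer expressing cells and less RNA per cell cannot be told apart.

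**Figure D3:**
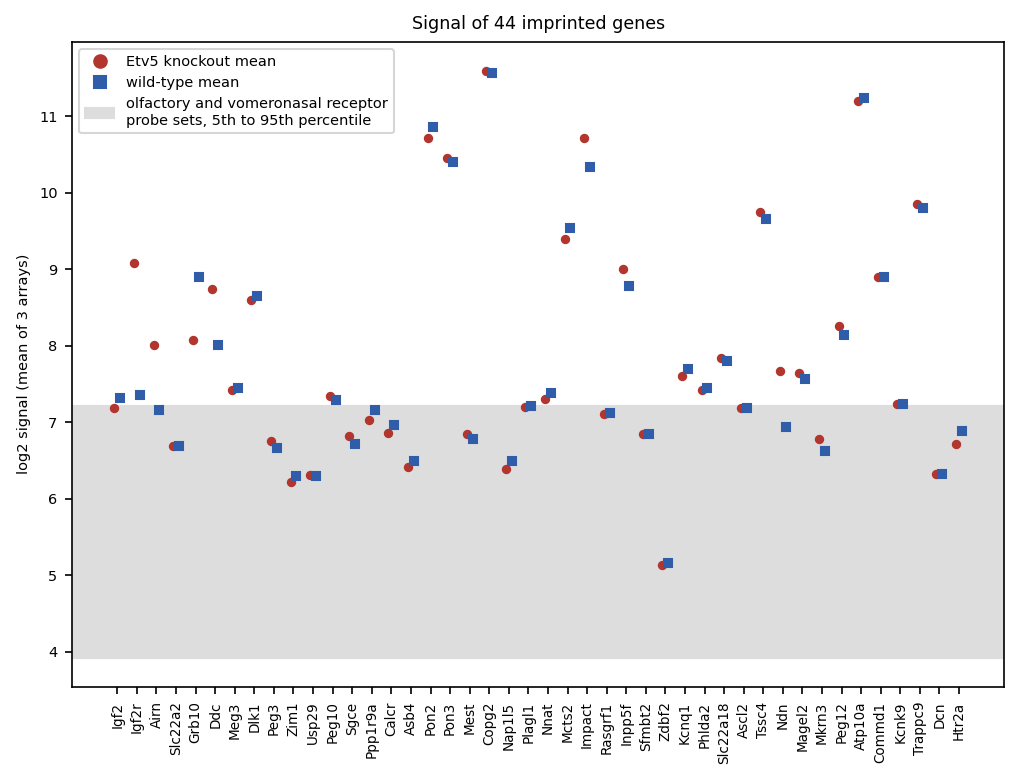
Mean log2 signal of each imprinted gene in the knockout (red circles) and the wild type (blue squares), 3 arrays each, in cluster order. The grey band spans the 5th to 95th percentile of 1210 receptor probe sets, 3.92 to 7.22; the wider gaps between the symbols are those of Igf2r, Airn, Grb10, Ddc and Ndn.

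Genes flanking the changed loci were examined next. The 4 nearest protein-coding genes with a single-gene probe set were taken on each side of every changed pair or gene. They followed the order of the GRCm38.p6 gene table and were chosen after the values were seen. Noncoding genes and genes without such a probe set were skipped. None of those taken beside Igf2r and Airn passed. Slc22a2 on the one side and Mas1, a G protein-coupled receptor gene, on the other differed by -0.0043 and -0.18 (limma adjusted p = 0.997 and 0.426). None beside Grb10 and Ddc passed either. Ikzf1, the lymphoid factor Ikaros, lies a few genes beyond Ddc and was bright, at 12.14 in the knockout and 12.10 in the wild type, a difference of 0.05 (adjusted p = 0.929). Cobl, an actin regulator next to Grb10, differed by 0.08 and the receptor gene Egfr by -0.03. Around Impact, the zinc finger gene Zfp521, a regulator of early B cell development, read 9.46, 9.63 and 9.46 in the knockout and 7.34, 7.54 and 7.43 in the wild type, a rise of 2.08 ± 0.079 (SE, log2, adjusted p = 0.000175). On the same side Psma8, a testis proteasome subunit gene, read 7.59, 7.87 and 7.75 in the knockout and 9.53, 9.65 and 9.75 in the wild type, a log2 change of -1.90 (adjusted p = 0.000381). Hrh4, between Impact and Zfp521, and Ss18, between Zfp521 and Psma8, did not pass.

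**Figure D4:**
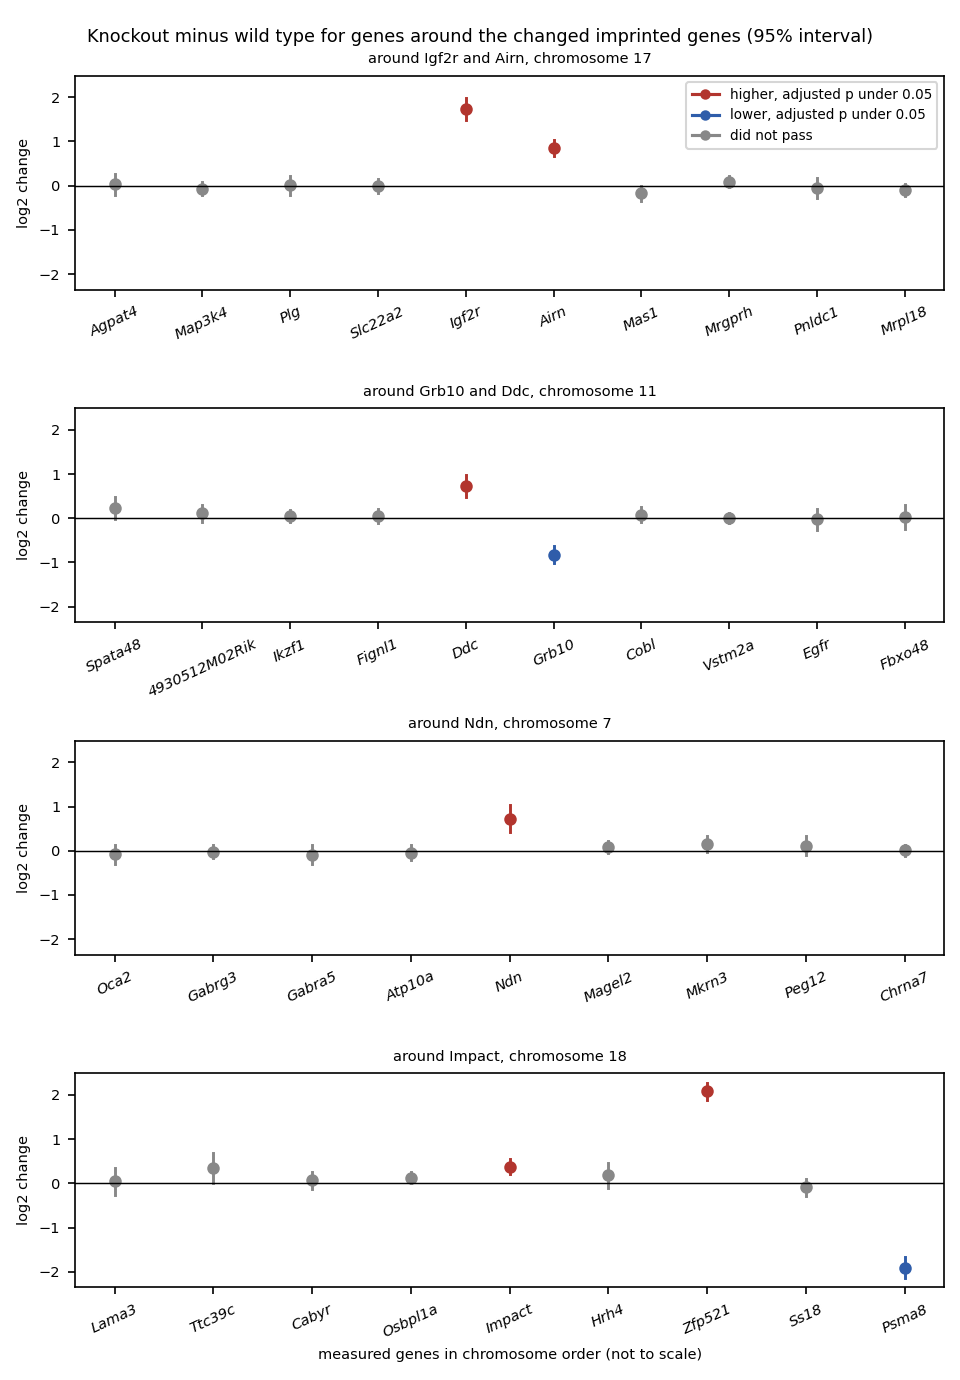
Log2 change, knockout minus wild type, with 95% intervals, of measured genes in chromosome order around Igf2r and Airn, Grb10 and Ddc, Ndn, and Impact. Igf2r and Airn stand above 0 and Grb10 and Ddc on opposite sides of it between neighbours near 0. Zfp521 at 2.08 and Psma8 at -1.90 both lie on the same side of Impact, beyond Hrh4.

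A list of genes acting on imprints, DNA methylation or chromatin, called imprint maintenance factors here, was also followed. It holds the TET enzymes as well as genes that keep imprints. Of its 29 measured genes, 1 rose, none fell and 28 did not pass. The share called was 3.45%, no more than the 4.43% of all genes, and the median change was -0.018. The gene that rose was Tet2, an enzyme that oxidises 5-methylcytosine, at 10.71, 10.77 and 10.83 in the knockout and 9.82, 9.92 and 10.12 in the wild type. Its groups did not overlap, and its log2 change was 0.81 ± 0.089 (SE, limma adjusted p = 0.00627, at most 0.0375 without any 1 sample). The relatives Tet1 and Tet3 differed by 0.10 and -0.01 without passing. Dnmt1, the maintenance DNA methyltransferase, differed by -0.02 (interval -0.14 to 0.10), Ctcf, the insulator protein at the H19 and Igf2 control region, by 0.03 (-0.09 to 0.15), and Trim28, the corepressor at methylated imprints, by -0.03 (-0.14 to 0.09). Zfp57, which recruits Trim28 to imprints in the mouse, averaged 7.10 in the knockout and 7.23 in the wild type, about the dim mark (interval -0.39 to 0.13).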

How the data were processed

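Arrays of 6 samples were compared, 3 ETV5 KO and 3 ETV5 WT, grouped by sample title. The deposited log2 values of 35556 probe sets were made by the authors with RMA and Partek 6.5, per the submitters' processing notes. RMA corrects background, quantile-normalizes and summarises probes, which compresses dim differences. The values' range shows the log2 scale; the genome build, chip definition, filters and detection calls are in none of the sources used here, and the number of arrays limits the precision. All columns were used. Of the probe sets, 21789 had exactly 1 gene symbol in the platform annotation, 1621 several and 12146 none, and 21698 matched the GRCm38.p6 gene table, used for names, chromosome membership and gene order.

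The fit was limma 3.58.1 in R 4.3.3 (lmFit, eBayes, no covariate, no filter, 6.23 degrees of freedom), with Benjamini-Hochberg adjustment over all probe sets at 0.05. An exact permutation test of 3 against 3 cannot go below 0.1. On simulated data with this spread (35556 probe sets), 36% of 100 changes of 0.5 and 68% of 100 changes of 1 were recovered, and 4.59% of calls were false. The members, lists and tests were chosen with earlier results of these data known. Genes given in full were those that passed, those apart between groups at an unadjusted p under 0.05, pairs of opposite parental expression, and genes 2 log2 units above the 95th percentile of 1210 receptor probe sets. From the lists of imprint maintenance factors and of further imprinted genes, the called genes, Dnmt1, Ctcf, Trim28, Zfp57 and Cdkn1c were named; Magel2, Inpp5f and the neighbouring genes were named after their values were seen.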

Additional observations from a re-analysis of the deposited data

How the results depend on the processing

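Results were recomputed with the sample number as a replicate block, without the dimmest 40% of probe sets, on single-gene probe sets, with cyclic loess, median centring, array weights, a robust variance trend, probe sets averaged per gene, and each sample left out in turn. A threshold of 0.10 was tried for the counts of calls only, the average per gene gives no count over all probe sets, and the filter on dim probe sets removed Ndn, Igf2, Peg3, Zim1, Mest and Zfp57, which have no value there. Of 428 values of 31 named genes, 402 kept their call or lack of one, 26 lost a call, none gained one, and no called gene changed direction. The count of imprinted genes called was 4 to 6 outside the fits that left out 1 sample and 3 to 5 in those; without the dimmest 40% of probe sets 23 of the 44 were tested and 5 called. With that filter the median change was 0.039, taken over the 23 genes left. Over all probe sets, the calls numbered 1095. They rose to 1351 with cyclic loess, 1363 with the robust variance trend, 1452 with array weights and 1475 at the threshold of 0.10. Over fewer probe sets, they were 1294 without the dimmest 40% and 1394 on single-gene probe sets. Median centring gave 1048. They fell to between 565 and 857 when 1 sample was left out (586 without knockout sample 3, and 565 and 620 without the wild-type samples 1 and 2). With the replicate block they were 544. The numbers are shared between genotypes, but deviations of same-numbered samples correlated at -0.12, 0.02 and 0.26, 2 of 6 arrays correlated best with their own number, so no pairing was assumed. With the block 4 imprinted genes passed, Impact and Ndn having adjusted p = 0.168 and 0.132. Tet2 was called in every fit. Signal near that of receptor probe sets limits what can be said of 18 imprinted genes.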

Other observations

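A further list of genes that lie in imprinted clusters or have been reported as imprinted in some mouse tissue had 30 measured members. Of these 3 rose, 1 fell and 26 did not pass by limma, and the median change was -0.0018, beside 4.43% of all genes called. Gatm, which makes the creatine precursor guanidinoacetate and is imprinted in mouse placenta, read 9.18, 9.50 and 9.44 in the knockout and 11.05, 11.18 and 11.23 in the wild type. Its groups lay far apart and it fell by 1.78 on the log2 scale (SE 0.10, limma adjusted p = 0.00058). Casd1, a sialic acid acetyltransferase gene next to Sgce, read 8.19, 8.46 and 8.52 in the knockout and 7.65, 7.60 and 7.73 in the wild type. It rose by 0.73 (adjusted p = 0.0144), while the 7 measured genes of the Peg10 and Sgce cluster did not pass, and its call was lost in 4 of 6 fits that left out 1 sample: without knockout sample 2 or 3 or wild-type sample 1 or 2 (adjusted p = 0.0678, 0.0566, 0.0745 and 0.0678).

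The survival gene Bcl2l1 rose by 0.63 (limma adjusted p = 0.00499) and the adaptor gene Gab1, imprinted in mouse placenta, by 0.41 (adjusted p = 0.0252). Gab1 lost its call in 5 of 6 fits that left out 1 sample, all but that without knockout sample 1, with adjusted p up to 0.113. Cdkn1c, the maternally expressed CDK inhibitor gene of the Kcnq1 cluster, read 8.13, 8.16 and 7.96 in the knockout and 8.09, 8.22 and 8.04 in the wild type, overlapping, with a change of -0.04 (interval -0.23 to 0.15). Smoc1, chosen after its value was seen, differed by 0.73 without passing (adjusted p = 0.0819). Xist, the imprinted noncoding RNA of X inactivation in mouse extraembryonic tissue, also chosen after its value was seen, was bright at 13.58 in the knockout and 13.60 in the wild type.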
